A study of Rattus norvegicus with 10 samples.

Results

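Cell-surface adhesion in fetal rat hearts was followed in 9 genes, namely the cadherins Cdh3, Cdh4, Cdh6, Cdh11 and Cdh13, the immunoglobulin-type molecules Ncam1, Mcam and Alcam, and the small glycoprotein gene Cd24. They are 9 of the 18025 genes in the deposited table and were taken from it by symbol. The list was chosen by their roles and selected on the difference in FPKM between HG and CON libraries, which was already known, so that the members' levels and fold changes are given as a description, without a test.

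The hearts were taken at embryonic day 19.5 from wild-type Sprague-Dawley fetuses, and each heart tissue library was one sample of messenger RNA. In the control (CON) group, 5 libraries came from pregnancies of 3-month-old dams injected with citric acid buffer. In the hyperglycemia (HG) group, 5 libraries came from dams of the same age and strain injected with streptozotocin (STZ) in that buffer, which destroys pancreatic beta cells. All dams were mated with normoglycemic males. STZ acts on the dam, and the sources used here do not say which fetuses shared a dam or litter, so that p-values measure the spread between these libraries only. The methods of the study speak of a library from pooled RNA, but within a group the deposited columns hold different values. The comparison asks how maternal hyperglycemia during gestation relates to the adhesion genes that the fetal heart transcribes.

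Cadherins are calcium-dependent receptors that bind like cadherins on the neighbouring cell, and the tails of the classical type I and type II members tie them through catenins to the actin cytoskeleton. In the heart, N-cadherin, the product of Cdh2, joins cardiomyocytes end to end at the intercalated disc, and VE-cadherin, the product of Cdh5, joins endothelial cells. Adhesion molecules of the immunoglobulin superfamily bind without calcium, to themselves or to other partners, and many of them change as nerves, vessels and muscle mature.

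The members did not move as a block. Cd24 and Cdh3 were the most different upward, at 3.55 and 2.39 times their CON mean in HG, and Alcam followed at 1.45 times. Ncam1 and Cdh13 were lower in HG, at 0.505 and 0.626 times their CON mean. For these 5 of the 9 members the libraries of the groups did not overlap, as was the case for 27.4% of all genes tested. Cdh11 was somewhat higher with overlapping libraries, and Mcam, Cdh6 and Cdh4 overlapped between the groups. In a model of all genes (limma on log2(FPKM + 0.1), call at a Benjamini-Hochberg adjusted p under 0.05), 4 members were called higher and 2 lower. Over all 14542 genes tested, 40.1% were called, 28.4% higher and 11.8% lower, and since the list was drawn up from this contrast nothing is read from the members' counts. Cd24 and Cdh3 also had a log2 fold change beyond 1, and 1.94% of all genes tested had a call with a log2 fold change beyond 1. All 9 members passed the filter of a mean of at least 0.1 FPKM.

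The unit, FPKM, is the number of fragments on a gene relative to the gene's length and to the size of the library, so that levels can be compared between genes. Fold changes are HG minus CON on the scale of log2(FPKM + 0.1), which understates the change of genes with low FPKM. Reads on genes, recovered from the steps between the FPKM values, numbered 17639829 to 18239924 in CON libraries and 16672782 to 19109764 in HG libraries. The log2 values of library pairs correlated at 0.988 to 0.992 within a group and at 0.977 to 0.984 between groups. CON3 stood apart by liver transcripts, with a summed level of Alb, Apoa1, Ttr, Afp and Serpina1 of 75.7 FPKM against 3.12 to 7.42 FPKM in the other CON libraries. The median log2 fold change of all genes tested was 0.09, and it was 0.01 when the libraries were scaled by median-of-ratios factors.

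**Figure D1:**
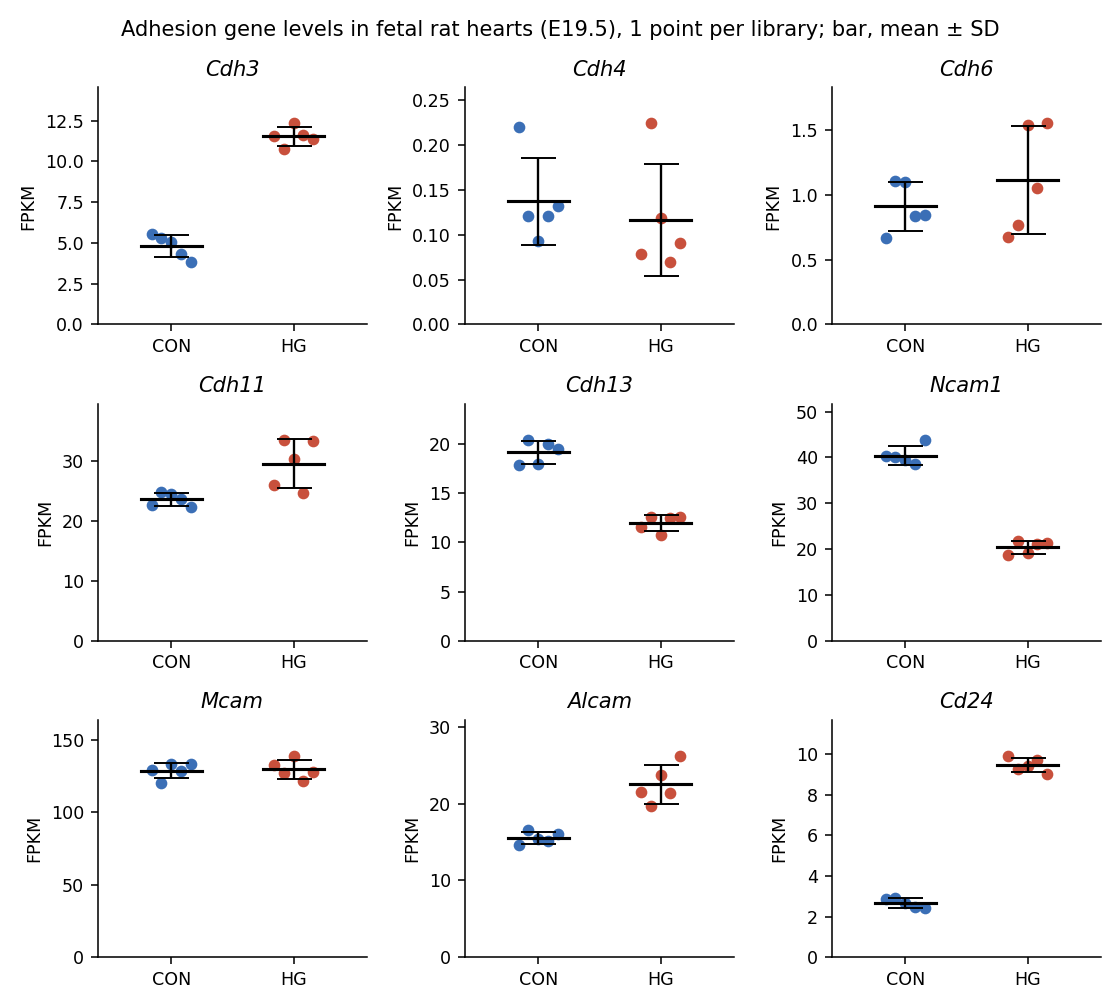
Levels of the 9 adhesion genes (vertical axes, FPKM, each starting at 0) in the 5 CON and 5 HG libraries, with 1 point per library and bars for the mean and SD. For Cd24, Cdh3 and Alcam all HG points lie above the CON points, for Ncam1 and Cdh13 they lie below, while Cdh4, Cdh6, Cdh11 and Mcam overlap.

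Among the type I classical cadherins, Cdh3 encodes P-cadherin, named after the placenta and found in many epithelia. Its level in CON1 to CON5 was 5.55, 5.28, 5.05, 4.35 and 3.86 FPKM. In HG1 to HG5 it was 11.6, 10.8, 12.3, 11.6 and 11.4 FPKM. The lowest HG library lay well above the highest CON library, and the HG libraries were closer together, with a coefficient of variation of 4.84% against 14.5% in CON. CON averaged 4.82 ± 0.699 FPKM and HG 11.5 ± 0.558 FPKM (SD, n = 5 per group), a log2 fold change of 1.25 (standard error 0.0904). These levels rested on 245 to 794 reads per library.

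Cdh4, which encodes R-cadherin, a type I cadherin known from the retina, was barely transcribed. Its level ranged from 0.0933 to 0.220 FPKM in CON and from 0.0699 to 0.224 FPKM in HG, on 9 to 30 reads per library. The log2 fold change of -0.15 (standard error 0.235) was smaller than its error.

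The type II cadherins Cdh6 and Cdh11 differed in abundance. Cdh6 encodes K-cadherin, known from the developing kidney and neural crest, and ranged from 0.666 to 1.11 FPKM in CON and from 0.675 to 1.55 FPKM in HG. Its log2 fold change of 0.22 had a standard error of 0.225, on 43 to 95 reads per library, and the HG libraries were spread more widely, with a coefficient of variation of 37.2% against 20.9% in CON.

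Cdh11 encodes OB-cadherin, a cadherin of mesenchymal cells such as osteoblasts and fibroblasts. In CON1 to CON5 it was at 22.7, 24.8, 24.5, 23.7 and 22.4 FPKM. In HG1 to HG5 it was at 26.0, 33.5, 30.4, 24.6 and 33.3 FPKM. HG4 lay inside the CON range, the other HG libraries lay above it, and the HG libraries were spread more widely (SD 4.12 against 1.06 FPKM). The log2 fold change was 0.31 (standard error 0.0826). With 1 library left out it ranged from 0.27 without HG2 to 0.38 without HG4, and with median-of-ratios factors it was 0.22. Summed markers of fibroblasts, led by Col1a1, came to 1384 ± 95.9 FPKM in CON against 1247 ± 70.1 in HG (SD, n = 5 per group; two-sided exact permutation test, p = 0.0556), and of the 8 markers 2 were called higher and 4 lower. Their part in the level of Cdh11 was not tested.

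Cdh13 encodes T-cadherin, which lacks the cadherin tail, is held in the membrane by a lipid anchor and is known as a receptor for adiponectin in heart and vessel. Its level in CON1 to CON5 was 17.9, 20.4, 18.0, 20.0 and 19.5 FPKM. In HG1 to HG5 it was 11.6, 12.5, 10.8, 12.4 and 12.6 FPKM. Every HG library lay below every CON library, and the spread within each group was alike (SD 1.16 FPKM in CON and 0.803 FPKM in HG, n = 5 each). The HG mean was 0.626 times the CON mean (log2 fold change -0.67, standard error 0.0579).

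Of the immunoglobulin-type members, Ncam1 encodes the neural cell adhesion molecule, which nerve, glia and developing muscle carry and which polysialic acid can make less adhesive. In CON1 to CON5 it was at 40.4, 40.0, 39.5, 38.5 and 43.8 FPKM. In HG1 to HG5 it was at 18.7, 21.7, 19.1, 21.2 and 21.2 FPKM. The groups were far apart in relation to their spread, with no HG library above 21.7 and no CON library below 38.5 FPKM. CON averaged 40.4 ± 2.04 FPKM and HG 20.4 ± 1.36 FPKM (SD, n = 5 per group), and the log2 fold change was -0.98 (standard error 0.0521). Scaled by median-of-ratios factors it was -1.07, beyond the fold threshold of 1.

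Mcam encodes CD146, an adhesion molecule of endothelial cells, pericytes and smooth muscle, and was the most abundant member. It ranged from 120.2 to 133.5 FPKM in CON and from 121.5 to 138.7 FPKM in HG. The group means were 128.9 ± 5.36 and 129.7 ± 6.47 FPKM (SD, n = 5 per group), and the log2 fold change of 0.01 (standard error 0.0423) turned to -0.08 with median-of-ratios factors. Neither value stood clear of the spread between libraries.

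Alcam encodes CD166, which binds itself and CD6, a receptor of T cells. In CON1 to CON5 it was at 14.6, 16.6, 15.3, 15.1 and 16.0 FPKM. In HG1 to HG5 it was at 21.5, 19.7, 23.7, 21.3 and 26.2 FPKM. All HG libraries lay above the CON range, and they varied more, with a coefficient of variation of 11.1% against 5.01%. The log2 fold change was 0.53 (standard error 0.0696).

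Cd24 encodes a short, heavily glycosylated peptide held in the membrane by a lipid anchor, which binds P-selectin and marks immature cells of several tissues. Its level in CON1 to CON5 was 2.87, 2.93, 2.67, 2.47 and 2.41 FPKM. In HG1 to HG5 it was 9.90, 9.30, 9.44, 9.74 and 9.01 FPKM. The groups lay far apart, and the lowest HG library was at 9.01 FPKM where the highest CON library was at 2.93 FPKM. CON averaged 2.67 ± 0.232 FPKM and HG 9.48 ± 0.352 FPKM (SD, n = 5 per group), a log2 fold change of 1.79 (standard error 0.0670), on 79 to 350 reads per library. Processed copies of this gene are known in other mammals, and how reads that match several places were counted is not given in the sources used here.

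Promoter sequence from RefSeq (build GRCr8) was at hand for 3 of the 9 members, Cd24, Cdh6 and Alcam. The 250 bases before the start are shown for the pair that was higher in HG. Capitals mark matches on either strand to the GC box (GGGCGG or CCGCCC), to the E-box CACCTG or CAGGTG, the type that Snail and Zeb factors bind, and to TATATAA. Cd24 lies on the plus strand at chr20:48656227-48656476 and Alcam on the plus strand at chr11:61805207-61805456.
Cd24: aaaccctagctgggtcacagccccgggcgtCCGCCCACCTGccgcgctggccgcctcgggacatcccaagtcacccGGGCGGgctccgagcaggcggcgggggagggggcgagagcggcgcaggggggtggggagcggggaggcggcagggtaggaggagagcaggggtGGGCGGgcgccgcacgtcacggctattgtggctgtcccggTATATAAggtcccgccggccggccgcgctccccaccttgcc
Alcam: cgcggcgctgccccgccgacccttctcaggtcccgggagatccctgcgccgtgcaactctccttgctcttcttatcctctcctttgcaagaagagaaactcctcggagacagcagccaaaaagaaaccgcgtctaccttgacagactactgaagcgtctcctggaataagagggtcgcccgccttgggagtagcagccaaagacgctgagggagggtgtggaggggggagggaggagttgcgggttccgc

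The Cd24 promoter held 3 GC boxes, 1 E-box that overlaps the GC box next to it, and TATATAA with its first base 41 bases before the start. GC boxes occurred in 30.5% of the 33469 rat promoter windows of this length, this E-box in 15.9% and TATATAA in 3.42%, each on either strand. G and C made up 75.6% of the Cd24 window, at the 96.9th percentile of all windows, against a median of 51.2%. The Alcam window, with 60.8% G and C, matched none of these motifs, nor TATAAA, which 12.9% of windows held. The Cdh6 window on the minus strand, chr2:63952288-63952537, had 56% G and C, 2 overlapping GC boxes and TATATAA with its first base 234 bases before the start. These are matches of letters, and binding was not measured.

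**Figure D2:**
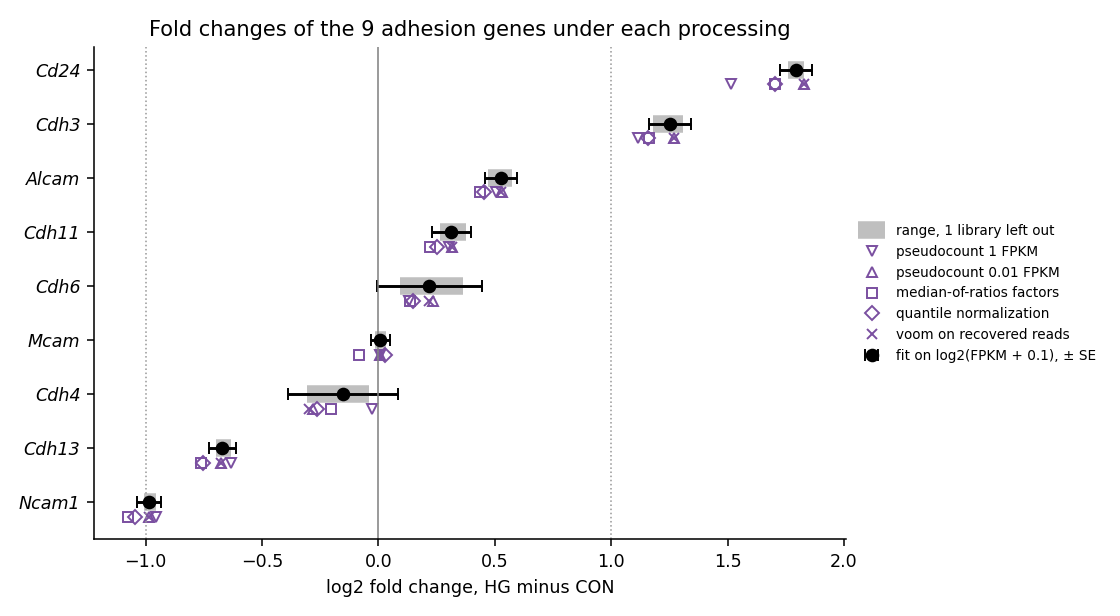
Log2 fold changes of the 9 genes, HG minus CON (horizontal axis), with the standard error as a bar, the range when 1 library at a time was left out as a grey box, and other processings as open symbols. Cd24 stays between 1.52 and 1.83 and Ncam1 crosses -1 with median-of-ratios factors at -1.07, while Mcam lies on both sides of 0.

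The order of the levels differed between the groups. In CON the members ranked Mcam, Ncam1, Cdh11, Cdh13, Alcam, Cdh3, Cd24, Cdh6 and Cdh4 from high to low, and no neighbours in that order overlapped over the libraries. In HG the order was Mcam, Cdh11, Alcam, Ncam1, Cdh13, Cdh3, Cd24, Cdh6 and Cdh4. The ranges of Cdh11 with Alcam, Alcam with Ncam1, and Cdh13 with Cdh3 then overlapped. Within a library, Cdh11 was above Alcam in 5 of 5, while Alcam was above Ncam1, and Cdh13 above Cdh3, in 4 of 5, so that the last pairs did not differ beyond their spread. Ncam1 stood next to the top in CON and close to Alcam in HG.

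Ratios within a library do not depend on how the library was scaled. Cdh3 was at 0.253 ± 0.0460 times the level of Cdh13 in CON and at 0.968 ± 0.112 times in HG (SD, n = 5 per group). The ratio of Cd24 to Ncam1 was 0.0662 ± 0.00715 in CON and 0.467 ± 0.0444 in HG. Alcam was at 0.384 ± 0.0217 times Ncam1 in CON and at 1.11 ± 0.146 times in HG. In each of these ratios all HG libraries lay above all CON libraries. This follows from the members' own levels, since the upper gene was higher and the lower gene lower in HG without overlap. Even between Cd24 and Cdh3, both higher in HG, the ratio differed, at 0.558 ± 0.0429 in CON and 0.823 ± 0.0421 in HG.

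Set against the other classical cadherins, Cdh3 remained a minor species. Cdh2 held 53.5% of the summed FPKM of type I and type II cadherins in CON and 51.8% in HG, and Cdh5 held 31.2% and 28.0%. Cdh11 was the next, with 10.3% in CON and 11.8% in HG. The share of Cdh3 was 2.11 ± 0.334% in CON against 4.62 ± 0.241% in HG (SD, n = 5 per group), while Cdh6 and Cdh4 stayed under 1% in every library. Among the immunoglobulin adhesion molecules, Mcam held 12.7% in CON and 13.2% in HG, Ncam1 3.98% and 2.08%, and Alcam 1.53% and 2.30%.

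**Figure D3:**
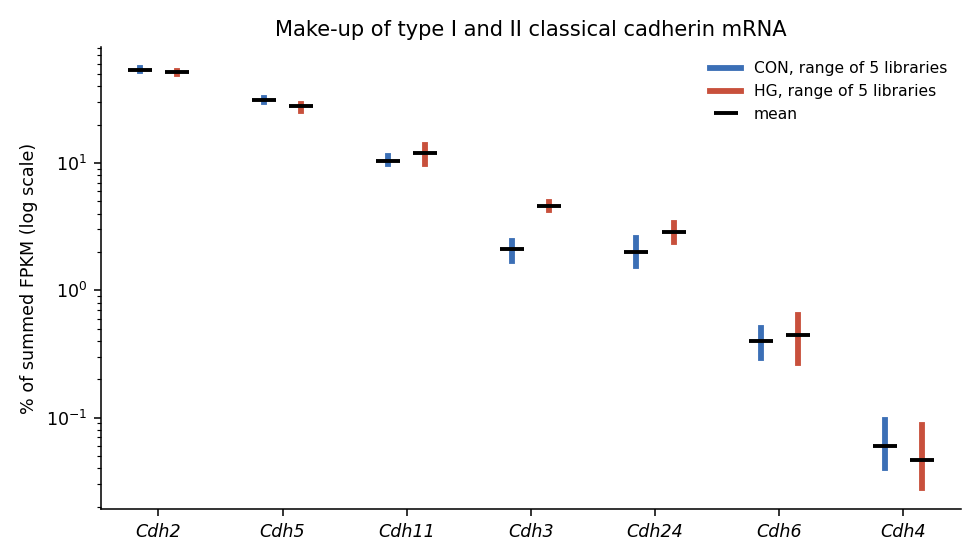
Share of each classical cadherin in the summed FPKM of type I and type II cadherins (vertical axis, log scale), as the range of 5 libraries (bars) and the mean (black line) per group. Cdh2 and Cdh5 make up most of the total in both groups, and Cdh3 goes from 2.11% in CON to 4.62% in HG without overlap.

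The remaining adhesion genes were described by lists with the 9 members left out, and for these genes limma adjusted p-values are given. The lists were chosen with earlier results of these data known, so that the counts of calls are a description. The counts of calls in each list stand beside 28.4% called higher and 11.8% called lower over all genes tested. Of 139 genes on 8 hand-written lists, 97 were tested, of which 32 were called higher and 11 lower, with a median log2 fold change of 0.08 beside 0.09 for all genes. With median-of-ratios factors the calls were 20 higher and 21 lower, and after quantile normalization 25 and 19, so that the predominance of higher calls depended on the scaling. Over all genes the share of calls that were higher went in the same way from 70.7% to 47.1% and 53.0%.

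The major classical cadherins of the heart showed no call. Cdh2 averaged 122.3 ± 3.80 FPKM in CON against 129.4 ± 3.93 in HG (log2 fold change 0.08, and -0.01 with median-of-ratios factors; limma adjusted p = 0.0747), and was called only without HG5 among the settings run (adjusted p = 0.0494, the lowest of a range up to 0.883). Cdh5 was at 71.4 ± 3.85 and 70.0 ± 5.16 FPKM (log2 fold change -0.03, limma adjusted p = 0.700). Cdh1 and Cdh15, the other tested type I cadherins, were not called either. Cdh24, 1 of 4 other type II cadherins tested and the only one called, rose from 4.56 ± 1.05 to 7.11 ± 0.723 FPKM (log2 fold change 0.65, limma adjusted p = 0.00244).

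Of 10 other members of the cadherin superfamily tested, 2 rose and 1 fell. Dsg2, a desmosomal cadherin of the heart, rose from 18.7 ± 0.596 to 24.2 ± 1.34 FPKM (log2 fold change 0.37, limma adjusted p = 6.58e-05). Dsc2, a desmosomal cadherin too, was not called (log2 fold change 0.14, limma adjusted p = 0.0769). Clstn3, a calsyntenin, rose with a log2 fold change of 1.56 from a level of 0.173 FPKM. Cdhr1, a cadherin known from photoreceptors, fell from 28.7 ± 4.48 to 18.2 ± 2.69 FPKM (log2 fold change -0.65, limma adjusted p = 0.000937). Of 15 protocadherins and large cadherins of the Fat, Dachsous and Celsr families, 4 rose and 3 fell. Pcdh18 rose most among those above 1 FPKM, from 5.68 ± 0.351 to 9.38 ± 0.857 FPKM (log2 fold change 0.71, limma adjusted p = 1.71e-05), and the pair Fat4 and Dchs1, which bind each other, rose with log2 fold changes of 0.39 and 0.36. Pcdh11x, with means of 0.0951 FPKM in CON and 0.215 in HG, was called as well, and lost the call in 4 of the fits that left out a library (adjusted p from 0.0551 to 0.0609). Pcdh12, a protocadherin of endothelial cells, fell (log2 fold change -0.35, limma adjusted p = 0.00210), as did Pcdh19 and Celsr1 (-0.31 and -0.22).

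Catenins and other proteins that bind cadherin tails were mixed as well, with 4 of 11 higher and 2 lower. Afdn, the afadin gene, rose from 12.1 ± 0.960 to 15.3 ± 0.721 FPKM (log2 fold change 0.33, limma adjusted p = 0.000897). Ctnnb1, the beta-catenin gene, rose from 174.7 ± 3.04 to 196.5 ± 8.53 FPKM (log2 fold change 0.17, limma adjusted p = 0.00254). Its call, and that of Ctnnd1, the p120 catenin gene, was lost with median-of-ratios factors (adjusted p = 0.161 and 0.0709, the highest over the settings run, which reached down to 0.000638 and 0.000500). Ctnnd2, another p120 relative, rose by 1.04 on the log2 scale from 0.107 FPKM. Ctnna3, alpha-T-catenin of cardiomyocyte junctions, fell from 7.81 ± 0.472 to 5.68 ± 0.850 FPKM (log2 fold change -0.46, limma adjusted p = 0.00192), and Arvcf fell from 33.6 ± 2.76 to 25.1 ± 5.76 FPKM (log2 fold change -0.44, limma adjusted p = 0.0150).

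Of 28 other immunoglobulin adhesion molecules, 13 rose and 3 fell, with a median log2 fold change of 0.18. With median-of-ratios factors 5 rose and 5 fell. Nectin2 rose from 21.5 ± 1.32 to 29.9 ± 1.72 FPKM (log2 fold change 0.47, limma adjusted p = 3.82e-05), and Mpzl1 from 38.1 ± 1.73 to 47.7 ± 1.96 FPKM (log2 fold change 0.32, limma adjusted p = 0.000101). Both kept their calls in each setting run. Bsg, which encodes basigin, a chaperone of lactate transporters and the most abundant gene of this list, fell from 344.0 ± 14.7 to 291.8 ± 20.4 FPKM (log2 fold change -0.24, limma adjusted p = 0.00257). Cadm3 fell with a log2 fold change of -0.41 (limma adjusted p = 0.0210) and Jam2 with one of -0.16 (limma adjusted p = 0.0301), which was not called without CON1, CON2, CON5, HG4 or HG5 (adjusted p from 0.0508 to 0.0668).

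**Figure D4:**
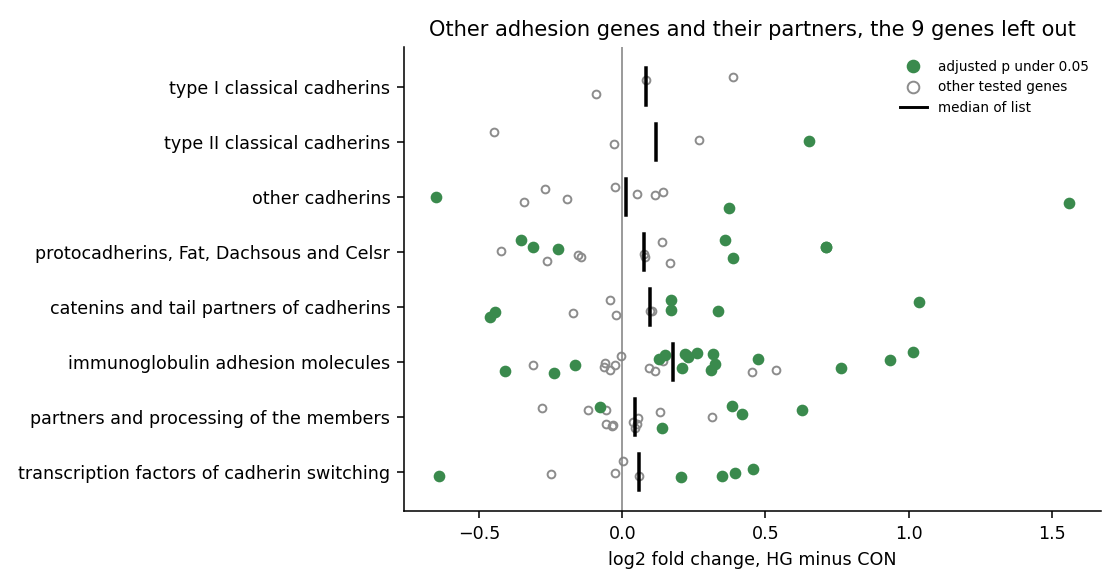
Log2 fold changes, HG minus CON (horizontal axis), of the tested genes of 8 hand-written lists with the 9 members left out, 1 point per gene, filled where the limma adjusted p was under 0.05, and a black line for the list's median. Each list has its median between 0.01 and 0.18 and most lists have called genes on both sides of 0.

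Among the genes that bind or process the members, 17 were tested, of which 4 rose and 1 fell. Fgfr1, the FGF receptor through which Ncam1 and N-cadherin signal, rose from 25.2 ± 0.551 to 33.05 ± 2.39 FPKM (log2 fold change 0.38, limma adjusted p = 9.61e-05). Fgfr2 rose from 3.78 ± 0.315 to 5.08 ± 0.423 FPKM (log2 fold change 0.42, limma adjusted p = 0.00124). Wnt5a, a ligand that Mcam can bind, rose from 6.44 ± 0.375 to 10.04 ± 1.05 FPKM (log2 fold change 0.63, limma adjusted p = 5.91e-05). Adam10, a protease that sheds cadherins and Alcam, rose by 0.14 on the log2 scale (limma adjusted p = 0.0116), and this call was lost with both other scalings, median-of-ratios factors and quantile normalization, over a range of adjusted p from 0.00296 to 0.363.

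The polysialic acid transferases that modify Ncam1 were not called. St8sia4 averaged 5.69 ± 0.851 FPKM in CON against 5.50 ± 1.13 in HG (log2 fold change -0.06, limma adjusted p = 0.765), and St8sia2 at 0.883 ± 0.418 and 0.810 ± 0.226 FPKM (log2 fold change 0.04, and -0.04 with median-of-ratios factors; limma adjusted p = 0.944). In CON4 St8sia2 was at 0.154 FPKM against 0.950 to 1.16 FPKM in the other CON libraries, and without CON4 its log2 fold change was -0.40, the lowest of a range up to 0.22 when 1 library was left out. Gfra1, a coreceptor of GDNF that works with Ncam1, was at 0.613 and 0.658 FPKM (limma adjusted p = 0.854). Selp, the P-selectin that binds Cd24, averaged 0.118 FPKM in CON against 0.167 in HG (limma adjusted p = 0.283). The laminin chain gene Lama4, whose product binds Mcam, had a log2 fold change of -0.08 (limma adjusted p = 0.0357), and this call was lost when any of CON1, CON2, CON3, CON4, HG1 or HG3 was left out, with adjusted p between 0.0609 and 0.0857. Over all settings its adjusted p lay between 0.00119 and 0.109.

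Of 9 transcription factors known for switching cadherins in the epithelial to mesenchymal transition, 4 rose and 1 fell. Twist1 rose from 5.28 ± 0.456 to 7.31 ± 0.843 FPKM (log2 fold change 0.46, limma adjusted p = 0.00140), Tcf3 from 31.4 ± 2.43 to 41.2 ± 3.58 FPKM (log2 fold change 0.39, limma adjusted p = 0.000710), and Zeb2 from 10.1 ± 0.860 to 12.9 ± 1.10 FPKM (log2 fold change 0.35, limma adjusted p = 0.00214). Snai1 was called at a log2 fold change of 0.20 (limma adjusted p = 0.0443). The Snai1 call was lost in 11 of 19 settings, among them both other scalings and the fits without CON1, CON2, CON4, CON5, HG1, HG2 or HG3 (adjusted p from 0.0517 to 0.104), and its adjusted p ranged from 0.00880 to 0.271. Snai3 fell from 0.185 to 0.0817 FPKM and lost its call without CON1, CON3 or HG2 (adjusted p from 0.0507 to 0.0627).

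The other lists, which are wider, came from the annotation in the deposited table. Of the KEGG pathway Cell adhesion molecules, which holds Ncam1, Cdh3, Cdh4 and Alcam, 107 other genes were tested, and 25 rose and 17 fell. Vcan, which encodes the matrix proteoglycan versican, rose from 29.3 ± 1.47 to 54.4 ± 2.74 FPKM (log2 fold change 0.89, limma adjusted p = 2.00e-07), and Itga8, Sdc1 and Nlgn2 rose with log2 fold changes of 0.76, 0.67 and 0.62. Of the GO term for homophilic adhesion, which holds the 5 cadherins, 88 other genes were tested, and 18 rose and 8 fell. In neither list was the share of called genes above the 40.1% called over all genes tested. Robo1, a receptor of axon guidance, rose from 3.67 ± 0.185 to 8.16 ± 0.616 FPKM (log2 fold change 1.13, limma adjusted p = 4.77e-07). With median-of-ratios factors the majority turned in both lists, to 12 higher and 20 lower for KEGG and 12 higher and 13 lower for GO. The filter at 1 FPKM left 8 lower calls in the KEGG list.

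In bulk tissue, fewer cells of a type and less RNA per cell cannot be told apart, so the markers of the heart's cell types are given beside the members. Marker sums and their tests use the FPKM as deposited, without rescaling. The median-of-ratios factors were 0.964 to 0.972 in CON and 1.01 to 1.06 in HG libraries. Whether the differences in the sums hold under that scaling was not tested. Cardiomyocyte markers, which include troponin T and cardiac actin, summed to 26052 ± 453 FPKM in CON against 21793 ± 1169 in HG (SD, n = 5 per group; two-sided exact permutation test, p = 0.00794, the smallest that 5 against 5 can give; 0.0238 adjusted over 12 lists), and 6 of 8 markers fell. The sums ranged from 25597 to 26812 FPKM in CON and from 20617 to 23487 FPKM in HG. Ncam1 and Cdh13 were lower in the same libraries.

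Markers of smooth muscle and pericytes, the cells that carry Mcam besides endothelium, summed to 894.5 ± 47.5 FPKM in CON against 1121 ± 91.2 in HG (exact permutation test, p = 0.00794, adjusted 0.0238). Of the 9 markers 3 rose and 3 fell. Acta2, Tagln and Cnn1 rose, with log2 fold changes of 0.32, 0.47 and 0.91. Rgs5, Cspg4 and Abcc9 fell, with -0.31, -0.29 and -0.18. Acta2 held most of the sum, so that the sum does not show the direction of the markers that fell. Endothelial markers were at 301.1 ± 9.25 and 316.5 ± 11.2 FPKM (exact permutation test, p = 0.0556), with 3 of 8 higher by limma and the other 5 not called. Epicardial markers summed to 34.7 ± 2.51 FPKM in CON against 41.8 ± 2.79 in HG (exact permutation test, p = 0.00794, adjusted 0.0238), with Aldh1a2 and Tbx18 higher, Upk1b lower and 5 of 8 not called.

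Neurons, which carry Ncam1, gave little signal. Markers of autonomic neurons summed to 4.53 ± 0.528 FPKM in CON and 3.93 ± 0.298 FPKM in HG (exact permutation test, p = 0.0397, adjusted 0.0952). Of the 4 markers tested, 2 were called lower by limma and 2 were not called. Phox2a and Th were at 0 in some libraries.

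Blood cells, some of which carry Cd24, had marker sums that overlapped between the groups, with the erythroid mean lower and the white blood cell mean higher in HG. Erythroid markers summed to 107.4 ± 18.0 FPKM in CON against 91.3 ± 7.91 in HG (exact permutation test, p = 0.103), with 1 of 8 higher and 4 lower. Markers of macrophages and white blood cells summed to 35.9 ± 3.36 and 40.3 ± 4.56 FPKM (exact permutation test, p = 0.119), with 2 of 9 tested higher and 1 lower. C1qa and Cd68 were higher (log2 fold changes 0.25 and 0.59) and S100a9 lower (-1.33), so the sum does not stand for each of these cell types. Cd3e was listed at 0 in some libraries. Markers of lung and thymus epithelium, in which cadherins and Cd24 can be abundant, stayed at or under 0.225 FPKM in every library, and several of them were listed at 0. Only 2 of 4 lung and 2 of 3 thymus markers were among the deposited genes. Sftpb, Nkx2-1 and Foxn1 were absent. The part of any of these cell types in the members' values was not tested.

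**Figure D5:**
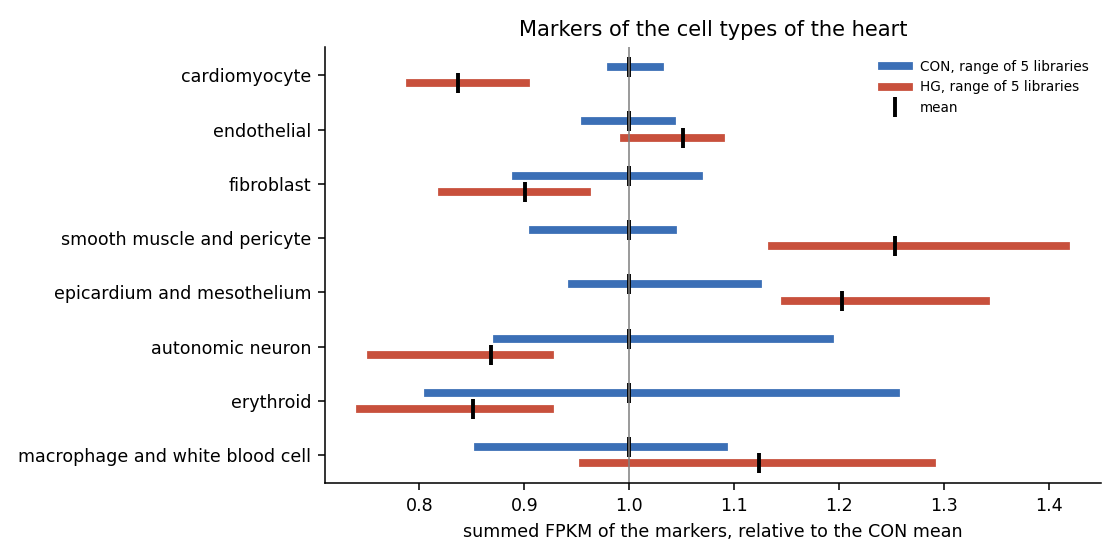
Summed FPKM of the markers of 8 cell types, divided by the CON mean (horizontal axis), as the range of 5 CON and 5 HG libraries with the mean as a black tick. On the deposited FPKM scale, the cardiomyocyte sums lie lower and the smooth muscle and epicardial sums higher in HG without overlap. The other sums overlap.

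Liver transcripts were lower in HG and highest in CON3. Their sum was 19.7 ± 31.4 FPKM in CON against 1.59 ± 0.593 in HG (exact permutation test, p = 0.00794, adjusted 0.0238), with 0.852 to 2.40 FPKM in the HG libraries and 3.12 to 7.42 FPKM in the CON libraries other than CON3. Of the 5 liver markers, 4 were called lower. Without CON3 the log2 fold changes were 1.79 for Cd24, 1.27 for Cdh3, 0.52 for Alcam, 0.33 for Cdh11, -0.69 for Cdh13 and -0.99 for Ncam1, close to the values with it. The other CON libraries all still lay above the HG libraries in liver transcripts, so this omission does not separate them from the group. The part of liver transcripts in the members' values was not tested.

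The neighbours of the members on the chromosome, by the order of genes in GRCr8, mostly showed no call. Cdh1, the gene beside Cdh3, which encodes E-cadherin, averaged 0.132 ± 0.0807 FPKM in CON against 0.194 ± 0.0645 in HG (limma adjusted p = 0.261), so that Cdh3 was far above its neighbour in every library. LOC100360573 on the other side of Cdh3 rose, with a log2 fold change of 0.18 (limma adjusted p = 0.00198), a call that was lost with median-of-ratios factors. Ttc12 beside Ncam1 had a log2 fold change of -0.01 (limma adjusted p = 0.975), and Mphosph6 and Hsbp1 on either side of Cdh13 had 0.03 and -0.03 (limma adjusted p = 0.725 and 0.622). Mtres1 beside Cd24 had -0.10 (limma adjusted p = 0.215). Beside Alcam, Hmgb2l1 rose from 10.4 ± 1.70 to 16.5 ± 1.61 FPKM (log2 fold change 0.67, limma adjusted p = 0.000278), while Cblb on the other side was not called (0.16, limma adjusted p = 0.102). By its symbol Hmgb2l1 is a relative of Hmgb2, and reads of near copies may be shared between them.

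Libraries were also compared within their groups. After the group means were removed, the deviations of Cd24 and Cdh3 over the 10 libraries had a Pearson r of 0.852. It was the highest among all pairs of members and describes points that share library and depth. The likeness lay mainly in CON, where both genes were highest in CON1 and CON2 and lowest in CON5. In HG, Cd24 was highest in HG1 and lowest in HG5, and Cdh3 was highest in HG3 and lowest in HG2. Among 11708 other genes averaging 1 FPKM or more, the deviations most like those of Cd24 were those of Zfp617, Serp1 and Slc38a1 (r = 0.938, 0.902 and 0.899). Those most like Cdh3 were Mrps21, Atp6v1a and Gorasp2 (r = 0.973, 0.941 and 0.923). Of these 6 genes only Atp6v1a was called between the groups (log2 fold change 0.34, limma adjusted p = 0.000174).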

How the data were processed

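Messenger RNA of 10 fetal rat hearts was compared as 5 CON and 5 HG libraries. The deposited values are FPKM that the authors computed per gene and library. Per the labels, RNA was extracted with TRIzol and libraries were made with a stranded mRNA kit. The submitters' processing notes name fastp, HISAT2, HTSeq, R 3.2.0 and the build mRatBN7.2, without their order. The study's methods name DESeq, which takes counts and was not used here. All per-sample columns were used.

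A linear model per gene was fitted to log2(FPKM + 0.1) with limma 3.58.1 in R 4.3.3 (empirical Bayes with a trend, no covariate), for the 14542 genes that averaged 0.1 FPKM or more, which left out 3483, and p-values were adjusted over all tested genes. The test of marker sums was a two-sided exact permutation in Python 3.11.15 with scipy 1.17.1, run on the deposited FPKM only. Whole reads were recovered from the FPKM steps for 17298 genes, 100% of those above 0 in 2 or more libraries (tolerance 0.02 reads), and fitted with voom as an alternative. In simulated data 187 of 200 changed genes and 14 unchanged ones were called, and 0 when none changed. The simulated noise was independent between genes and libraries, without a shift of scale or shared litters. That setting differs from the real data, in which 40.1% of genes were called, so it gives no error rate for those calls.

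The members and lists were chosen with earlier results of these data known. Genes were named by rule: all members, and from each list up to 4 called genes with the largest change at 1 FPKM or more, the most abundant gene, and tested partners of the members. Called genes outside the rule (Clstn3, Ctnnd2, Pcdh11x, Pcdh19, Celsr1, Jam2, Snai3), Cdh1, Cdh15, Dsc2, further cell type markers and the neighbours of members were named after their values were seen. Likeness was the Pearson correlation of deviations from group means. As alternatives, the scaling was replaced by median-of-ratios factors or by quantile normalization, hemoglobin genes were dropped, the pseudocount was set to 1 or 0.01, the filter was dropped or raised to 1 FPKM, the replicate number was added as a block, voom replaced the FPKM fit, and 1 of the 10 libraries at a time was omitted. The labels give no batch. Results of 1 marker list are not reported here.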

Additional observations from a re-analysis of the deposited data

Results flagged for a closer look

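None of the 9 adhesion genes had a library that stood apart within its group. Among the other genes and marker sums given here, 138 groups of 5 libraries were tested for a library whose gap to its nearest neighbour exceeded 0.71 of the group's range, and 10 did, where chance flags about 1 in 20. Among partners of the members, Adam10 was at 36.1 FPKM in HG1 against 39.2 to 40.2 in the other HG libraries, St8sia2 at 0.154 FPKM in CON4 against 0.950 to 1.16, and Selp at 0.222 FPKM in CON3 against 0.0828 to 0.102. Fat1 was at 20.7 FPKM in HG4 against 22.6 to 23.3, Arvcf at 28.9 FPKM in CON2 against 33.9 to 35.8, and Vcan at 31.9 FPKM in CON5 against 28.3 to 29.2. The smooth muscle and pericyte sum was 812.8 FPKM in CON5 against 901.9 to 931.5, and the autonomic neuron sum was 3.41 FPKM in HG2 against 3.98 to 4.18. Among markers of other organs, the liver sum was 75.7 FPKM in CON3 against 3.12 to 7.42, and the lung sum was 0.0298 FPKM in CON2 where the other CON libraries were at 0.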

How the results depend on the processing

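The 6 members called in the model kept direction and call in each setting run, 4 higher and 2 lower. Cd24 was 1.52 with a pseudocount of 1, Ncam1 -1.07 and Mcam -0.083 with median-of-ratios factors. With 1 library left out, Cd24 ranged from 1.76 to 1.83, Ncam1 from -1.01 to -0.95 and Mcam from -0.02 to 0.03, and 2 or 3 members passed a log2 fold change of 1, Ncam1 being the third without CON4 or HG2 and under both other scalings. The adhesion lists had 20 higher and 21 lower calls under median-of-ratios scaling and 19 lower under quantile normalization (28 to 34 higher and 8 to 12 lower with 1 library left out). Over all genes there were 2271 higher calls under median-of-ratios scaling and 2615 under quantile normalization. Further, 64, 134 and 427 passed a log2 fold change of 1 with a pseudocount of 1, a filter at 1 FPKM and voom, against 282. The cause of these shifts was not tested.

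With the replicate number as a block, 3566 genes were called higher and 1530 lower, and the members' calls were the same. Same-numbered libraries did not deviate together (correlations of 0.108, -0.0749, -0.126, -0.0276 and 0.0144), so the numbers were not taken as pairs. Of the list genes named, Jam2 and Lama4 lost their calls under the block (adjusted p = 0.0648 and 0.109). The levels of Cdh4 rest on 9 to 30 reads per library and those of Cdh6 on 43 to 95, so that counting error is part of their spread. Cdh4 gives no value with the filter at 1 FPKM.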
